A study of Mus musculus with 4 samples.

Results

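The measurements described here are those of 3 water channel genes, Aqp8, Aqp1 and Aqp4, and of the vasopressin receptor gene Avpr1a in mouse liver. All probe sets that the platform annotation assigns to 1 of these 4 gene symbols alone were taken, which gave 7 of 12422 probe sets and 4 of 8251 named genes. The genes were selected on their measured signals, since Aqp8 and Avpr1a stood out between the times of day on these same arrays. All values are therefore a description and carry no test.

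Total RNA from the liver of male C57BL/6 mice was measured on 4 Affymetrix MG_U74Av2 arrays, 1 for each of 4 groups. The groups were mice after removal of both adrenals (bilateral adrenalectomy, ADX) at zeitgeber time (ZT) 14, ADX mice at ZT2, sham-operated mice at ZT14 and sham-operated mice at ZT2, with ZT given in hours after lights on. ADX was done from the back under ketamine and xylazine, and these mice drank 0.9% NaCl, whereas sham-operated mice drank water. All groups ate standard chow, and the number of animals per array and the anaesthesia of the sham operation are not stated in the labels. Loss of the glands and salt in the drinking water go together in every ADX group, so their parts in a difference cannot be told apart.

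Aquaporins are membrane pores that let water follow osmotic gradients, and some of them also pass glycerol, ammonia or hydrogen peroxide. In the liver, aquaporin 8 lies in hepatocyte vesicles, in the bile canalicular membrane and in mitochondria, and is known for moving water into bile. Aquaporin 1 is the water channel of red cells, of endothelium and of bile duct cells, while aquaporin 4 is best known from astrocytes and skeletal muscle. The V1a receptor encoded by Avpr1a couples vasopressin to the G protein Gq, phospholipase C and intracellular calcium, which in hepatocytes sets off glycogen breakdown.

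The upstream sequences of the 3 genes whose probe sets were detected are shown because 2 of the genes, Aqp8 and Avpr1a, were lower at ZT14 and the other, Aqp1, passed 2-fold in no comparison. They are the 250 bases before each gene's start in RefSeq, build GRCm38.p6, all on the plus strand, and capitals mark matches to the motifs searched.
Aqp8, chr7:123462044-123462293: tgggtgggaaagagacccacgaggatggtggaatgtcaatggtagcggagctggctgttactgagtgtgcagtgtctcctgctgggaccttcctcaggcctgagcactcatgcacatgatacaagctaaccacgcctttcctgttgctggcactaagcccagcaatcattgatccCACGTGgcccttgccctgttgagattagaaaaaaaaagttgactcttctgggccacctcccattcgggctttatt
Avpr1a, chr10:122448249-122448498: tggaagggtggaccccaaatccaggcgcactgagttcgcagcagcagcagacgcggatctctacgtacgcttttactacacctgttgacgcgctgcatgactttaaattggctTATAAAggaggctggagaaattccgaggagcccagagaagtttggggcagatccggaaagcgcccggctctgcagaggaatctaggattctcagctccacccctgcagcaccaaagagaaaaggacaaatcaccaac
Aqp1, chr6:55336049-55336298: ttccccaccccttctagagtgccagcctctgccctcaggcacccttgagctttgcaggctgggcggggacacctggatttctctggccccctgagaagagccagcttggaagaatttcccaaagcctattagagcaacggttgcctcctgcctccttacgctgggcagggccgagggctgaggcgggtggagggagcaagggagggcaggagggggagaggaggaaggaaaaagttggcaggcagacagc

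Both strands were searched for 6 motifs. The E-box CACGTG, bound by the clock activators CLOCK and BMAL1, occurred once in the Aqp8 window, 75 to 70 bases before the start, and 6.02% of the 32851 windows of the same length in the table hold it. The TATA box TATAAA occurred once in the Avpr1a window, 137 to 132 bases before the start, and 12.4% of windows hold it. No letters of the E-box variant CACGTT (3.85% of windows), the D-box TTANGTAA of the Dbp family (2.06%), the ROR element TNGGTCA (9.19%) or the palindromic glucocorticoid response element (0.387%) were found in any of the 3 windows. E-box and E-box variant differ in their last letter and do not overlap in these sequences. A match describes these letters and is not a binding site shown by these arrays.

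Signals below are intensities scaled to a common trimmed mean, and each probe set has a detection call of Present, Marginal or Absent on each array. Present calls covered 44.4% to 47.0% of probe sets on the 4 arrays. A probe set passed when its signals stood 2-fold or more apart and the call on the brighter of the arrays was Present, which is a size criterion and not a test. Differences are on the log2 scale after a floor of 3.91 units. A fold against an array without a Present call takes that array's signal as an upper limit and is written "at least". Such a fold holds for this floor and can be smaller with a higher one. The 7 genes of the hepatocyte list on the array, such as Alb and Apoa1, were Present on all 4 arrays, with summed signals between 27626 and 29462. All arrays came from 1 hybridisation day and fluidics station, each with a wash module of its own.

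Of the 7 probe sets, 4 were detected, that is Present on 1 array or more, and 3 were not. In the ADX pair 2 were lower at ZT14 (1 of Aqp8 and 1 of Avpr1a), where 2.45% of all probe sets Present on either array were lower by the same rule. In the sham pair 3 were lower at ZT14 (that of Aqp8 and both of Avpr1a), where 2.53% of all were. None differed between ADX and sham at ZT2, where 2.56% of all did in either direction, and 1 of Avpr1a was lower in ADX at ZT14, where 1.62% of all were. The comparisons in time helped to choose the genes, so nothing is read from these shares.

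**Figure D1:**
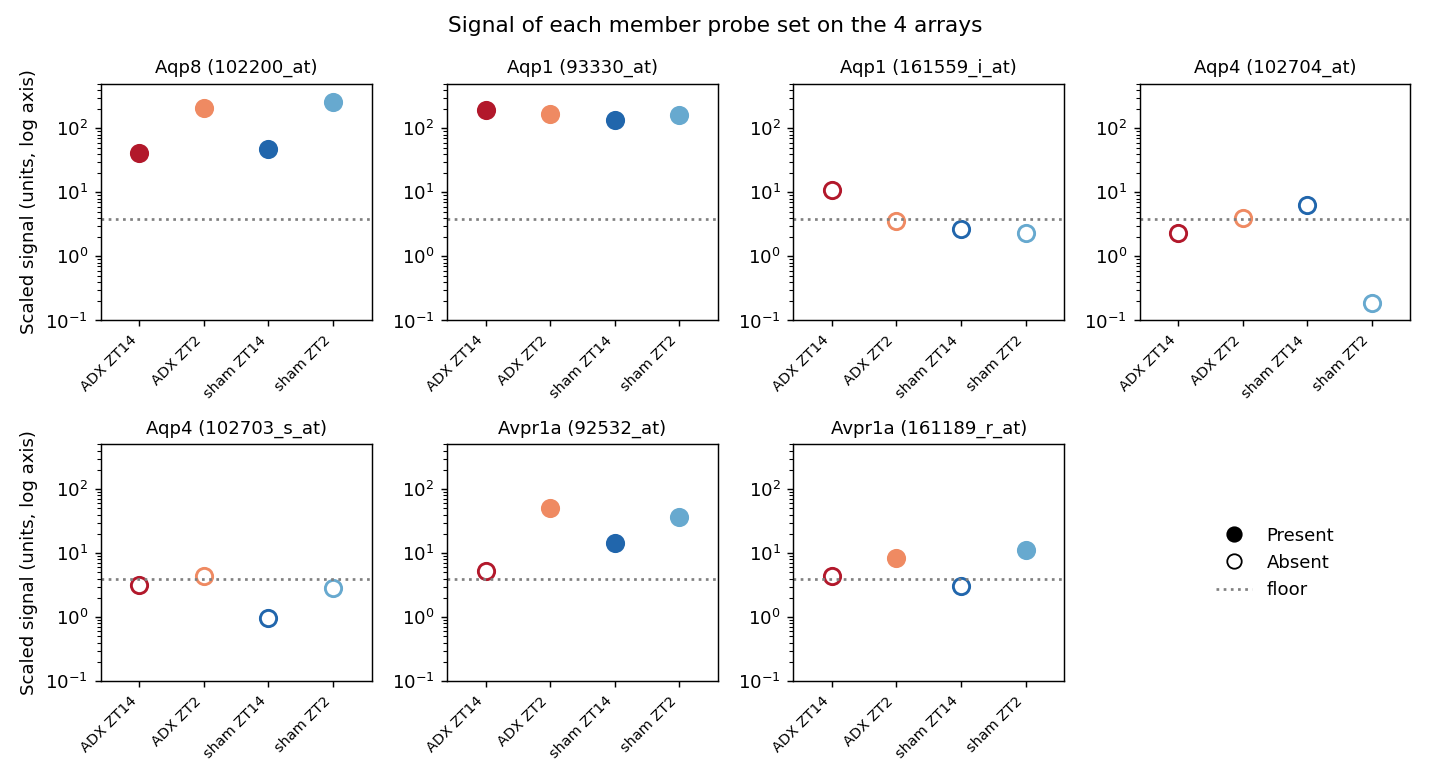
Scaled signal (log axis, units) of each of the 7 probe sets on the 4 arrays, 1 point per array, filled where Present and open where Absent. The dotted line is the floor of 3.91 units, and the Aqp8 panel shows the ZT14 points (41.5 in ADX and 47.7 in sham) below the ZT2 points (206 in ADX and 262 in sham).

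Aqp8 was lower at ZT14 than at ZT2 both with and without adrenal glands. Its single probe set (102200_at, designed on a complete coding mRNA) gave signals of 41.5 in ADX at ZT14, 206 in ADX at ZT2, 47.7 in sham at ZT14 and 262 in sham at ZT2, and was Present on all 4 arrays. Both ZT14 signals lay below both ZT2 signals. The signal was 4.97-fold lower at ZT14 in ADX (log2 difference -2.31) and 5.50-fold lower at ZT14 in sham (-2.46). Among the 4877 probe sets Present on all 4 arrays, the ADX difference was the lowest (rank 1) and the sham difference had rank 4 from the lowest. That set leaves out probe sets Absent on any array, such as that of Arntl (-2.91 in ADX and -3.78 in sham). Aqp8 was also chosen on these differences, so nothing is read from its ranks.

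Aqp8 signals differed less between ADX and sham than between the times of day, the differences on which the gene was chosen. ADX signals were lower than sham signals at both times, by 1.27-fold at ZT2 (-0.35) and by 1.15-fold at ZT14 (-0.20), both short of 2-fold. Across the 4877 probe sets the robust SD of the ADX minus sham difference was 0.24 at ZT2 and 0.31 at ZT14, so the Aqp8 values lie within 2 such SDs. The day-night differences of ADX and sham livers differed by 0.15 for Aqp8, against a robust SD of 0.37 for this quantity over the same probe sets. That spread is over probe sets, not over replicate livers, which were not measured here.

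**Figure D2:**
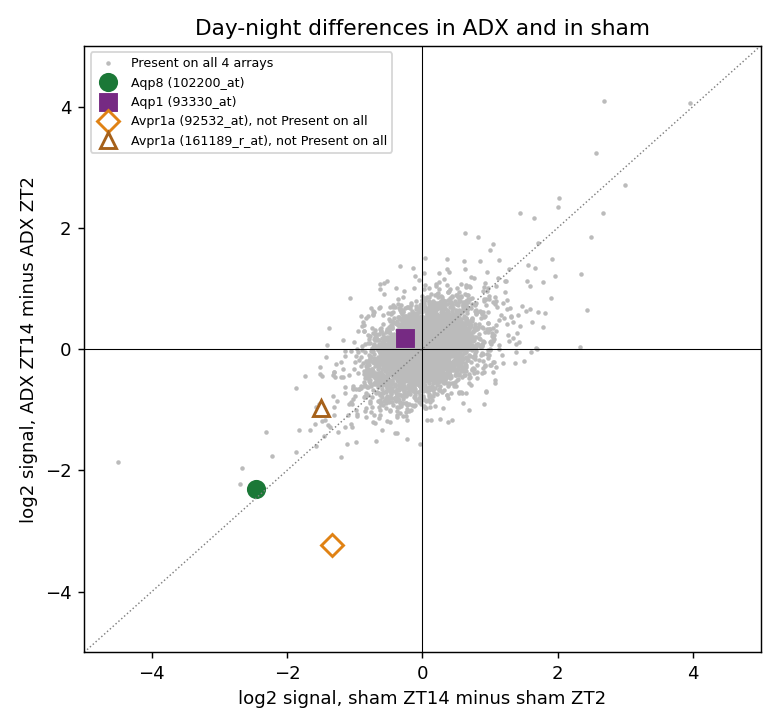
Log2 difference of signal between ZT14 and ZT2 in sham (x axis) and in ADX (y axis). Grey points are the 4877 probe sets Present on all 4 arrays, and open symbols are Avpr1a probe sets that were not. Aqp8 lies near the dotted line of equal differences, at -2.31 in ADX and -2.46 in sham, and Aqp1 lies near the origin.

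The probe sets whose pattern over the 4 arrays was most like that of Aqp8 were sought among 4437 probe sets of 1 other gene Present on all arrays. Likeness was the root mean square difference of centred log2 signals over the 4 arrays. Tubb2a (0.22) and Tubb3 (0.34), named as tubulins of a family with similar sequences, Ccng2 (0.35), a cyclin G gene, and both probe sets of Cldn1 (0.31 and 0.35) came closest. Cldn1 encodes claudin 1, a tight junction protein. Its brighter probe set had signals of 18.3 in ADX at ZT14, 59.4 in ADX at ZT2, 23.5 in sham at ZT14 and 86.0 in sham at ZT2. The other probe set of Cldn1 gave 14.8 in ADX at ZT14, 50.4 in ADX at ZT2, 10.3 in sham at ZT14 and 48.1 in sham at ZT2. Both showed low ZT14 and high ZT2 signals under either operation. With 4 points per profile a Pearson correlation picks shape without size, and it shared 0 of these 5, while a search of probe sets Present on 2 or more arrays shared 3.

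**Figure D3:**
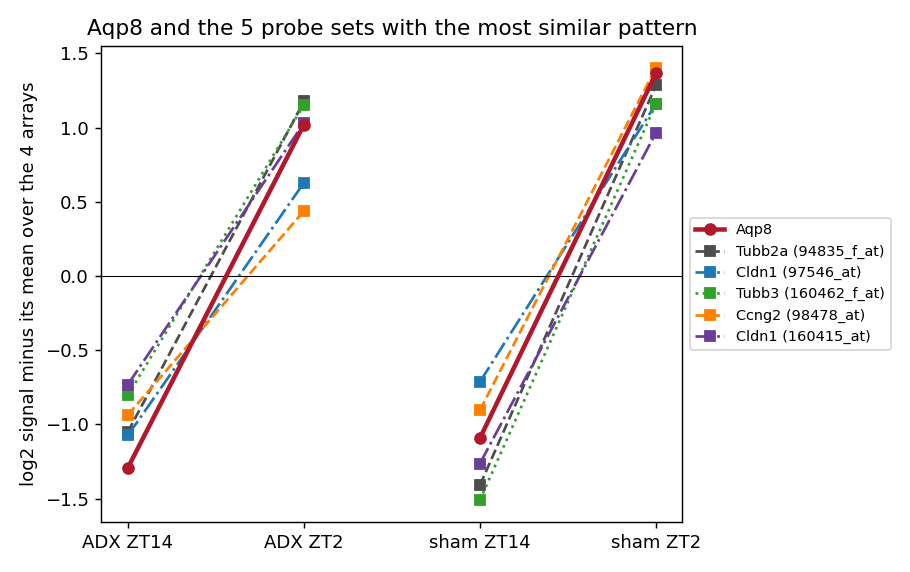
Log2 signal minus its own mean over the 4 arrays for Aqp8 and the 5 probe sets nearest to it, with lines joining the arrays of 1 operation. Each of the 6 profiles is below its mean on the ZT14 arrays and above it on the ZT2 arrays.

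Aqp1 was detected at a nearly even level. The probe set on its mRNA (93330_at) gave 190 in ADX at ZT14, 168 in ADX at ZT2, 134 in sham at ZT14 and 160 in sham at ZT2, and was Present on all 4 arrays. The 4 signals lay within 1.42-fold of each other, with the sham ZT14 array the dimmest. The log2 difference between ZT14 and ZT2 was 0.18 in ADX and -0.26 in sham, while ADX minus sham was 0.07 at ZT2 and 0.51 at ZT14. None of these passed 2-fold. The 5 nearest patterns, led by Mef2d and Mef2a (0.016 and 0.022), were as flat as its own.

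Of 7 genes of the red cell list on the array, 4 were Present on at least 1 array, with a summed signal of 2194 in ADX at ZT14, 1615 in ADX at ZT2, 1206 in sham at ZT14 and 1916 in sham at ZT2. The globin gene Hba-a1 gave 1789 in ADX at ZT14, 1261 in ADX at ZT2, 874 in sham at ZT14 and 1552 in sham at ZT2, and passed 2-fold in ADX against sham at ZT14 (2.05-fold higher). The globin gene Hbb-b2 gave 199.7 in ADX at ZT14, 123 in ADX at ZT2, 119 in sham at ZT14 and 140.0 in sham at ZT2. Alas2, the haem synthesis enzyme of red cell precursors, gave 171 in ADX at ZT14, 207 in ADX at ZT2, 178 in sham at ZT14 and 202.5 in sham at ZT2. Klf1, a transcription factor of red cell precursors, gave 35.0 in ADX at ZT14, 23.9 in ADX at ZT2, where it was Absent, 34.2 in sham at ZT14 and 21.2 in sham at ZT2. Both globins and Aqp1 were highest on the ADX ZT14 array and lowest on the sham ZT14 array, while Alas2 was lowest on the ADX ZT14 array and Klf1 was high on both ZT14 arrays. Slc4a1, Gata1 and Epb42 of the same list were Present on no array. Among endothelial markers, 6 of 11 were measured, with sums of 359 in ADX at ZT14, 473 in ADX at ZT2, 355 in sham at ZT14 and 462 in sham at ZT2. Eng made up most of that sum, with 192 in ADX at ZT14, 317 in ADX at ZT2, 198 in sham at ZT14 and 296 in sham at ZT2. Cdh5 was higher at ZT14 in ADX (68.2 at ZT14 against 52.8 at ZT2) and Kdr was higher at ZT14 in sham (34.2 at ZT14 against 25.3 at ZT2), both by less than 2-fold. Among bile duct markers, Krt19, Krt7, Epcam and Prom1 were Present on no array by the probe set that stands for each gene, and Cftr on the sham ZT14 array alone. The part of red, endothelial or bile duct cells in the Aqp1 signal was not tested. In a piece of liver, fewer cells of a type and less RNA per cell cannot be told apart.

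**Figure D4:**
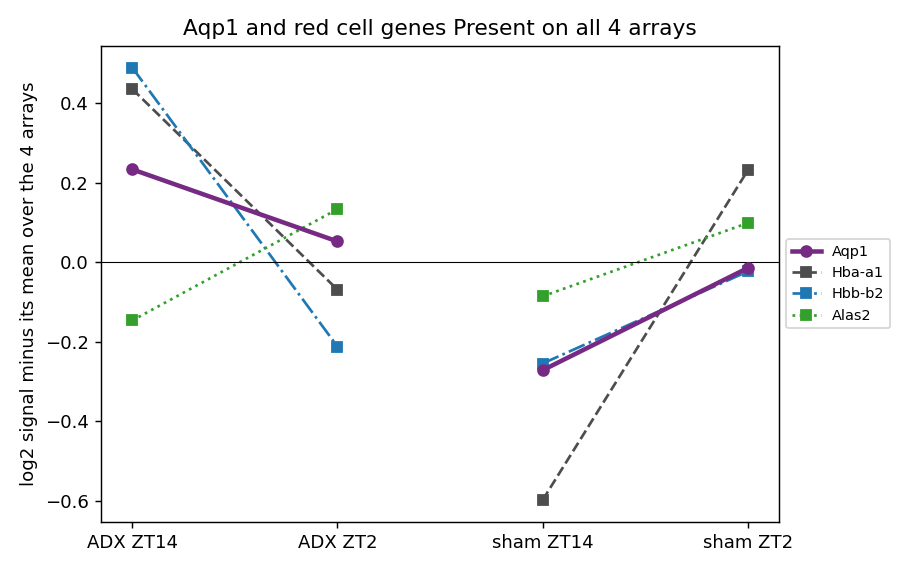
Log2 signal minus its own mean over the 4 arrays for Aqp1 (93330_at) and the 3 red cell genes Present on all arrays, with lines joining the arrays of 1 operation. Aqp1, Hba-a1 and Hbb-b2 are highest in ADX at ZT14, and Alas2 is lowest there.

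The other probe set of Aqp1 (161559_i_at, from an expressed sequence tag that the array's design placed in another sequence cluster) was Absent on all 4 arrays. Its signals were 10.9 in ADX at ZT14, 3.54 in ADX at ZT2, 2.64 in sham at ZT14 and 2.31 in sham at ZT2. It gives no level for Aqp1, and the high ADX ZT14 value was itself without detection.

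Aqp4 was not detected. Its probe set 102704_at gave 2.35 in ADX at ZT14, 3.96 in ADX at ZT2, 6.25 in sham at ZT14 and 0.19 in sham at ZT2. The probe set 102703_s_at gave 3.20 in ADX at ZT14, 4.38 in ADX at ZT2, 0.98 in sham at ZT14 and 2.87 in sham at ZT2. All 8 values were Absent and lay near the floor, so no fold is given. None of the 10 skeletal muscle genes of the marker list, such as Ckm and Acta1, was Present on any array.

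Avpr1a was lower at ZT14, near the lower end of what these arrays detect. The probe set on its mRNA (92532_at) gave 5.34 in ADX at ZT14, where it was Absent, 50.4 in ADX at ZT2, 14.7 in sham at ZT14 and 37.2 in sham at ZT2. Both ZT14 signals lay below both ZT2 signals. The signal was at least 9.43-fold lower at ZT14 in ADX (-3.24) and 2.54-fold lower at ZT14 in sham (-1.34). With the floor raised to the 95th percentile of Absent signals (23.9 units) the ADX difference was -1.08, still past 2-fold, and the sham difference was -0.64, which is not.

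The second probe set of Avpr1a (161189_r_at, from the end of an expressed sequence tag) was dimmer and had the same order of times. It gave 4.38 in ADX at ZT14, 8.55 in ADX at ZT2, 3.03 in sham at ZT14 and 11.1 in sham at ZT2, and was Present at ZT2 alone. The signal was at least 2.84-fold lower at ZT14 in sham (-1.51) and at least 1.95-fold lower at ZT14 in ADX (-0.97). The ADX value does not pass the 2-fold rule. The sham call ended with a doubled floor (-0.51).

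Between the operations, the probe sets of Avpr1a gave no common direction at ZT2. At ZT14 the probe set 92532_at was at least 2.75-fold lower in ADX than in sham (-1.46), and this ended with a doubled floor (-0.91). The probe set 161189_r_at was Absent on both ZT14 arrays and gives no fold there. At ZT2 the differences between ADX and sham were 0.44 for 92532_at and -0.38 for 161189_r_at, of opposite sign and under 2-fold. For 92532_at the day-night difference was more negative in ADX than in sham by 1.89, a size that rests on an Absent signal. The same quantity, ADX minus sham, was -1.34 with a doubled floor and -0.44 with the raised floor. For 161189_r_at both day-night differences rest on Absent signals, so the difference between them has no defined size or sign. With 1 array per group these differences could not be tested.

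**Figure D5:**
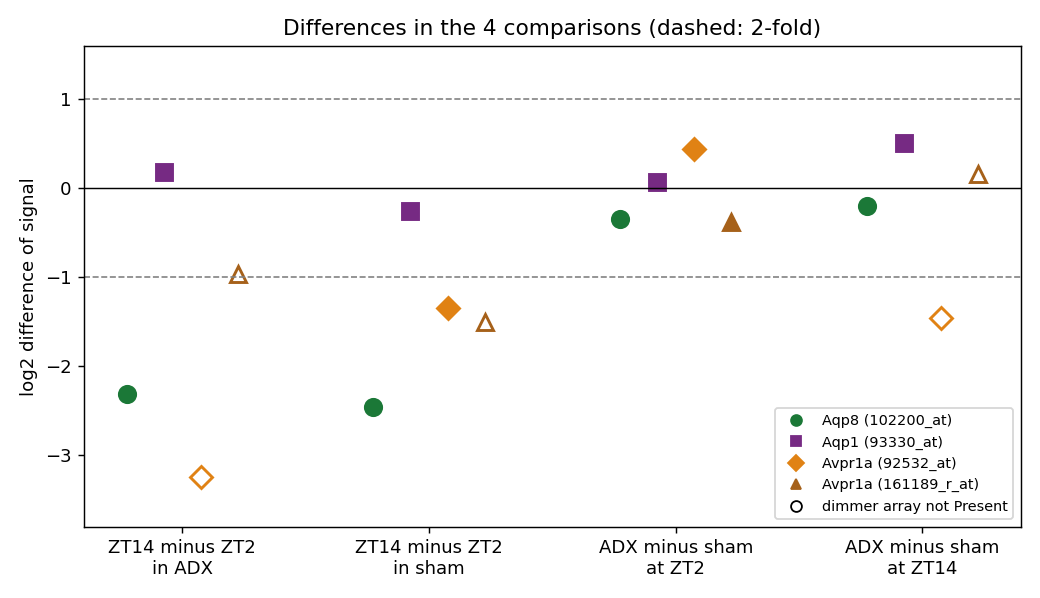
Log2 difference of signal in the 4 comparisons for the 4 detected probe sets, with open symbols where the dimmer array was not Present and dashed lines at 2-fold. Aqp8 and both Avpr1a probe sets are negative in both day-night comparisons, and Aqp1 stays between the dashed lines throughout.

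Of the other aquaporins listed, 4 were on the array and 2 were measured, that is Present on at least 1 array. Aqp9, the glycerol channel of hepatocytes, gave 474 in ADX at ZT14, 342 in ADX at ZT2, 425 in sham at ZT14 and 453 in sham at ZT2, and passed 2-fold in no comparison (0.47 in ADX and -0.09 in sham between the times). Aqp7, the glycerol channel of fat cells, was Present in ADX at ZT2 alone (10.6) and was at least 2.72-fold lower at ZT14 in ADX. Mip and Aqp2 were Absent on all 4 arrays. Among the vasopressin and oxytocin genes, Avp, Avpr2 and Oxt were also Absent throughout. Of 5 measured genes of glycerol handling, Aqp7 alone passed 2-fold between the times. That was in ADX, where 127 of all 5007 measured genes were higher and 105 lower at ZT14. Gpd1, which makes glycerol 3-phosphate, gave -0.67 in ADX and -0.34 in sham by its brighter probe set, and 0.72 in ADX and -0.05 in sham by the other.

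Of 10 measured genes of Gq and calcium signalling, the pathway downstream of the V1a receptor, 1 was higher and 0 lower past 2-fold at ZT14 in ADX, and 1 higher and 0 lower at ZT14 in sham. Of all 5007 measured genes, 127 were higher and 105 lower at ZT14 in ADX, and 150 higher and 110 lower at ZT14 in sham, so a count of 0 in a list of this size says nothing particular about the list. The list's median difference was 0.44 in ADX and -0.01 in sham, where the median of all 5007 measured genes was 0.01 in ADX and 0.00 in sham. Gnaq, which encodes the Gq subunit, was Present in ADX at ZT14 (11.8) and in sham at ZT2 (8.51) and Absent elsewhere. It was at least 2.10-fold higher at ZT14 in ADX, and at least 2.20-fold higher in ADX than in sham at ZT14. Its low signals also enter the list's median, as do those of Prkca, which was Absent at both times in ADX. Rgs16, which shortens Gq signals, was 2.46-fold higher at ZT14 in sham (36.2 at ZT14 against 14.7 at ZT2) and 1.61-fold higher in ADX. Plcb1, a phospholipase C, and Itpr2, the main inositol trisphosphate receptor of hepatocytes, stayed under 2-fold between the times. Plcb1 gave a log2 difference of 0.08 in ADX and 0.22 in sham, and Itpr2 gave -0.01 in ADX and 0.04 in sham by its brightest probe set. Prkca, a protein kinase C, was Present in sham at ZT2 alone (11.4) and at least 2.32-fold lower in ADX there. Prkcb, another kinase C, was at least 2.05-fold higher in ADX at ZT14 (22.0).

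Of 4 measured hepatic receptors of this class, Adra1b, the alpha-1B adrenergic receptor that also signals through Gq, was at least 2.00-fold lower at ZT14 in sham. It only just passed the 2-fold rule there, with a Marginal call at ZT14. Its signals were 29.9 in ADX at ZT14, 46.2 in ADX at ZT2, 24.0 in sham at ZT14 and 48.1 in sham at ZT2, low at ZT14 under both operations. The ADX difference was -0.63, under 2-fold. Gcgr, the glucagon receptor, gave -0.09 in ADX and -0.12 in sham. Ednrb, an endothelin receptor, was Present in sham at ZT14 alone (8.21), at least 2.10-fold above ZT2.

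Of 8 measured glycogen genes, Ppp1r3c alone passed 2-fold. A count this small cannot be told from the share among all 5007 measured genes given above. It encodes a subunit that brings protein phosphatase 1 to glycogen. Its signals were 36.8 in ADX at ZT14, 109 in ADX at ZT2, 32.5 in sham at ZT14 and 70.4 in sham at ZT2. It was 2.95-fold lower at ZT14 in ADX and 2.16-fold lower in sham, in the same direction as Aqp8 and Avpr1a. The list's median was 0.20 in ADX and 0.17 in sham.

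Genes of bile transport were read beside Aqp8. The list holds transporters of the bile canaliculus, a membrane that Aqp8 shares. It also holds Rdx, Ezr and Msn, which are not transporters, and Cftr, listed as a bile duct marker too. Of 8 measured genes, none passed 2-fold between the times in ADX and Cftr alone did in sham, on a signal of 8.11 at ZT14. Counts this small, here and for ion and salt transport below, cannot be told from the share among all 5007 measured genes given above. Cftr was also at least 2.075-fold lower in ADX than in sham at ZT14. Abcc2, the conjugate export pump, was 0.61 higher on the log2 scale at ZT14 in ADX and 0.49 higher in sham, opposite in sign to Aqp8. Abcb4, the phospholipid floppase, gave 0.23 in ADX and 0.01 in sham. The list's median was 0.19 in ADX and 0.16 in sham. Of 5 measured genes of ion and salt transport, each read from its brightest probe set, none passed 2-fold between the times, and Slc12a1, a sodium, potassium and chloride cotransporter of the kidney, was at least 2.37-fold higher in ADX than in sham at ZT2 (9.28 in ADX against 3.24 in sham). Nedd4l, a ubiquitin ligase that acts on sodium channels, gave a log2 difference between the times of -0.96 in ADX and -0.38 in sham by its brightest probe set. Its other probe set gave -1.02 in ADX, which passed 2-fold, and -0.85 in sham. Sgk1, a kinase induced by corticosteroids, gave 115 in ADX at ZT14, 117 in ADX at ZT2, 92.5 in sham at ZT14 and 99.4 in sham at ZT2, with ADX minus sham at 0.24 at ZT2 and 0.32 at ZT14.

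Markers of liver zones were read because Avpr1a and Aqp8 need not be even across the lobule. Of 6 measured genes of the pericentral zone, such as Cyp2e1 and Cyp1a2, none passed 2-fold in any comparison. Their summed signals were 13734 in ADX at ZT14, 13793 in ADX at ZT2, 14921 in sham at ZT14 and 13896 in sham at ZT2. Of all 5007 measured genes, 71 were higher and 37 lower in ADX than sham at ZT2, and 93 and 64 at ZT14. With the counts between the times given above, a count of 0 among 6 says nothing particular about the zone. The sums of 7 periportal genes were 9309 in ADX at ZT14, 9355 in ADX at ZT2, 9965 in sham at ZT14 and 9803 in sham at ZT2. Of these, Pck1, a key enzyme of glucose synthesis, and Ass1, a urea cycle enzyme, were higher at ZT14 in ADX, by 3.61-fold and 5.13-fold. Against sham, Pck1 was 2.36-fold lower in ADX at ZT2, and Ass1 was 2.39-fold higher in ADX at ZT14. The sums are carried by a few bright genes such as Cyp2e1 and Cps1, and the part of the zones in the Aqp8 and Avpr1a values was not tested.

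Markers of other cells and tissues were read as well. Of 10 smooth muscle and stellate cell genes, which matter because vessels also carry the V1a receptor, 5 were measured, with sums of 126 in ADX at ZT14, 122 in ADX at ZT2, 94.0 in sham at ZT14 and 98.4 in sham at ZT2. They lay higher in ADX than in sham at both times and differed little between the times. Of 10 kidney genes on the array, 5 were measured, with sums of 189 in ADX at ZT14, 160.2 in ADX at ZT2, 134 in sham at ZT14 and 161 in sham at ZT2. Cyp4b1 gave 128 in ADX at ZT14, 139 in ADX at ZT2, 113 in sham at ZT14 and 139.6 in sham at ZT2. It made up most of each sum and was Present on all 4 arrays. Umod, Cdh16 and Aqp2 were Present on no array. Kap, an androgen-regulated kidney gene, was Present in ADX at ZT14 alone (39.8). The other kidney genes past 2-fold in a comparison, Slc12a1, Slc34a1 and Lrp2, had signals under 10 units on all 4 arrays. Of 6 exocrine pancreas genes, which matter because pancreas also expresses Aqp8, 2 were measured, with sums of 127 in ADX at ZT14, 163 in ADX at ZT2, 102 in sham at ZT14 and 148 in sham at ZT2. Cela1 made up most of that sum, with 91.1 in ADX at ZT14, 139 in ADX at ZT2, 71.0 in sham at ZT14 and 129 in sham at ZT2, and lay lower at ZT14 under both operations by less than 2-fold. The other measured gene, Cel, lay higher at ZT14 under both operations, also by less than 2-fold. It gave 36.4 in ADX at ZT14, 24.7 in ADX at ZT2, 30.7 in sham at ZT14 and 19.1 in sham at ZT2. Its call was Present in sham at ZT14 alone. Ctrb1, Prss2 and Clps, which encode digestive enzymes or their cofactor, were Present on no array. Of 7 measured leukocyte genes, Ms4a1, a B cell marker, alone passed 2-fold, at least 2.32-fold higher in ADX than in sham at ZT14. Of all 5007 measured genes, 93 were higher and 64 lower in ADX than in sham at ZT14. Of the hepatocyte list, Apob, the apolipoprotein of very low density lipoprotein, alone passed 2-fold, 2.01-fold higher at ZT14 in sham. Single genes in lists of this size cannot be told from the shares among all measured genes.

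Genes of the core clock were read beside the day-night differences of Aqp8 and Avpr1a. Of 14 measured, 5 were higher and 3 lower past 2-fold at ZT14 in ADX, and 5 were higher and 2 lower at ZT14 in sham. Per2, Nr1d2, Dbp, Tef and Bhlhe40 were higher at ZT14 under both operations, and Arntl and Nfil3 were lower at ZT14 under both. Per3 was at least 3.11-fold lower at ZT14 in ADX, was 1.53-fold lower at ZT14 in sham, and was at least 2.03-fold lower in ADX than in sham at ZT14. No clock gene passed 2-fold between ADX and sham at ZT2. Of all 5007 measured genes, 71 were higher and 37 lower in ADX there, so a count of 0 among 14 says nothing particular about the clock genes.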

How the data were processed

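The deposited tables of the 4 arrays hold an absolute (single-array) Affymetrix Signal, a linear intensity, with a call and a p-value of detection for each probe set, per the file headers. The deposited p-value entered only through its call. Neither the software nor a scaling target is recorded in the headers or labels. The series table repeated these intensities (largest difference 0). Each array was multiplied to a common 2% trimmed mean (factor 1.067 for ADX ZT14, 1.043 for ADX ZT2, 0.977 for sham ZT14 and 0.925 for sham ZT2), 66 control probe sets were left out, a floor of 3.91 units (the median Absent signal) was set, and log2 was taken. Run sheets were read for chip type, station, module and hybridisation day.

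The members and gene lists were chosen with earlier results of these arrays known. Names came from the platform annotation, and a list gene with several probe sets was read from the brightest on average. The genes named are all members, list members past 2-fold, detected relatives, 2 to 4 bright examples of a list, and the 5 nearest patterns. Of the 4 members' upstream sequences in RefSeq, those of Aqp8, Avpr1a and Aqp1 are shown. With 1 array per group no test was run, and the number of arrays limits the precision. Alternatives changed the scaling, floor, detection filter and size rule. The steps were tested on simulated data. Python 3.11.15, NumPy 2.4.6, pandas 2.3.3 and matplotlib 3.10.9 were used.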

Additional observations from a re-analysis of the deposited data

Results flagged for a closer look

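The day-night difference of Aqp1 (93330_at) was 0.18 in ADX and -0.26 in sham, of opposite sign, with ADX minus sham at 0.44 on the log2 scale. Both differences are under 2-fold, and the difference between them was not tested.

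The ADX minus sham difference of Avpr1a (92532_at) was -1.46 at ZT14 and 0.44 at ZT2, of opposite sign, so that the ZT14 value minus the ZT2 value was -1.89. It was not tested, and its size depends on the floor, since the ADX ZT14 array was Absent for this probe set.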

How the results depend on the processing

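Aqp8 was lower at ZT14 past 2-fold in ADX and in sham under all 5 alternatives of scaling and floor. Its lowest signal (41.5) lay above every floor tried, so only the alternatives of scaling could move these differences. For Avpr1a 161189_r_at in ADX, quantile normalization gave -1.14 and signals as deposited -1.0, both past 2-fold; in sham it gave -0.51 with a doubled floor and 0.00 with the floor raised to 23.9 units. For Avpr1a 92532_at the raised floor gave -0.64 between the times in sham and 0.00 between operations at ZT14, where a doubled floor gave -0.91. Its difference of day-night differences was -1.34 with a doubled floor and -0.44 with the raised floor. That of 161189_r_at, which rests on Absent signals in both operations, was 0.91 with a floor of 1 unit and 0.00 with the raised floor. The count of member probe sets past 2-fold at ZT14 against ZT2 in ADX (2) became 1 with both arrays Present. It became 3, all lower at ZT14, with quantile normalization, with signals as deposited or at 1.5-fold. With no detection filter it was also 3, but the added probe set, the Absent Aqp1 161559_i_at, was higher at ZT14. In sham (3) it became 2 with a doubled floor or with both arrays Present, and 1 with the raised floor or at 3-fold. Between operations at ZT14 (1) it became 0 with a doubled or raised floor, with both arrays Present or at 3-fold, and 2 with no detection filter, which lets in the Absent Aqp1 161559_i_at. Of 80 log2 differences of the detected probe sets under alternatives, 73 kept their side of 2-fold. That count includes bright signals that no floor tried could move. No paired analysis was possible because each group has 1 array, and no array could be left out.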
